A study of Homo sapiens with 6 samples.

Results

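The genes described here code for cohesin, the ring that holds sister chromatids together, for the proteins that open or guard that ring, and for the protease that cuts it with its inhibitor. They were SMC1A, SMC3, RAD21, STAG1, STAG2, PDS5A, WAPAL, SGOL1, PTTG1 and ESPL1, and each was taken by an exact match of its symbol in the deposited table, on all 6 arrays. Of these 10 symbols, 9 had a row among the 37879 rows of the table, and WAPAL had none under that name. The rule that took them used no measured value, but the genes were chosen with earlier results of these data known.

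Total RNA was measured on Illumina bead arrays in HEK293T cells, a human embryonic kidney line that carries the SV40 large T antigen. The 3 control samples had received an empty vector, and the 3 Stau1 samples had received plasmids for Stau155-FLAG, the tagged 55-kDa form of the RNA-binding protein Staufen1. All 6 samples came from cells given nocodazole, a drug that depolymerises microtubules, at 50 ng/ml for 15 h per the labels, and were taken in prometaphase. The comparison asks how RNA levels in prometaphase differ when Stau1 is overexpressed. The labels give no share of cells that took up the plasmid, and they do not say whether the replicates were separate cultures, so p-values measure only the spread between these samples.

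Cohesin is a ring of SMC1A, SMC3 and the kleisin RAD21, to which either STAG1 or STAG2 is bound. In prophase most of it leaves the chromosome arms through WAPL and PDS5 proteins, whereas shugoshin (SGOL1), together with the phosphatase PP2A, protects the cohesin at centromeres. The protease separase (ESPL1) cleaves RAD21 at anaphase, and until then it is held inactive by securin (PTTG1), which the anaphase-promoting complex marks for destruction once the spindle checkpoint is satisfied. A cell arrested by nocodazole is therefore in the state in which securin is kept and separase is silent, a control that acts on proteins, while the arrays measure RNA.

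Values are log2 intensities after background correction and quantile normalization, and a change is the mean of the Stau1 arrays minus the mean of the control arrays on that scale. Each row averages the probes of a gene, so levels were compared between arrays and not between genes. Over the arrays the median raw intensity was 83.0 to 102.2, and 12730 to 13469 rows had a detection p under 0.05, which compares an intensity with the negative control beads of its array. The 8 mitotic markers were detected on all 6 arrays, as were 5 of 8 HEK293T markers (PAX2 on 1, EYA1 on 0 and LHX1 on 4 arrays). None of 4 fibroblast markers was detected, and of the leukocyte markers PTPRC and CD3E were not, while LYZ was detected on 5 arrays. STAU1 itself, looked at as a check of the labels, had values of 11.21, 11.39 and 11.37 in the control arrays and of 11.41, 11.53 and 11.48 in the Stau1 arrays. The groups did not overlap, as in 4.51% of the 13285 tested rows with the Stau1 arrays higher. The change was 0.15 with a standard error (SE) of 0.092 and did not pass the test (limma, adjusted p = 0.999). The row does not separate plasmid from endogenous RNA, so it is a weak check of the labels.

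No gene of the cohesin cycle passed the test. Of the 9 measured, 0 had an adjusted p under 0.05 (limma with Benjamini-Hochberg adjustment over 13285 rows, where 0% of rows were called), and the adjusted p was 0.999 for each of them. At an unadjusted p under 0.05, 1 of 9 (SMC1A, higher) was found, against 3.73% of all rows in either direction and 2.40% higher with Stau1. By the t-test that the study's methods name for immunoprecipitated RNA, 0 of 9 were found at an unadjusted p under 0.05, against 3.48% of all rows. The 3 control and 3 Stau1 values overlapped in all 9, whereas the groups did not overlap in 7.91% of all rows, with the Stau1 arrays higher in 4.51% and lower in 3.40%. The mean was higher with Stau1 in 5 of 9 genes, against 49.4% of all rows, and the median change was 0.037, against -0.0021 over all rows. With 3 arrays against 3, an exact two-sided permutation test cannot give a p below 0.1. Because a bulk sample was measured, fewer cells of a kind and less RNA per cell cannot be told apart.

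**Figure D1:**
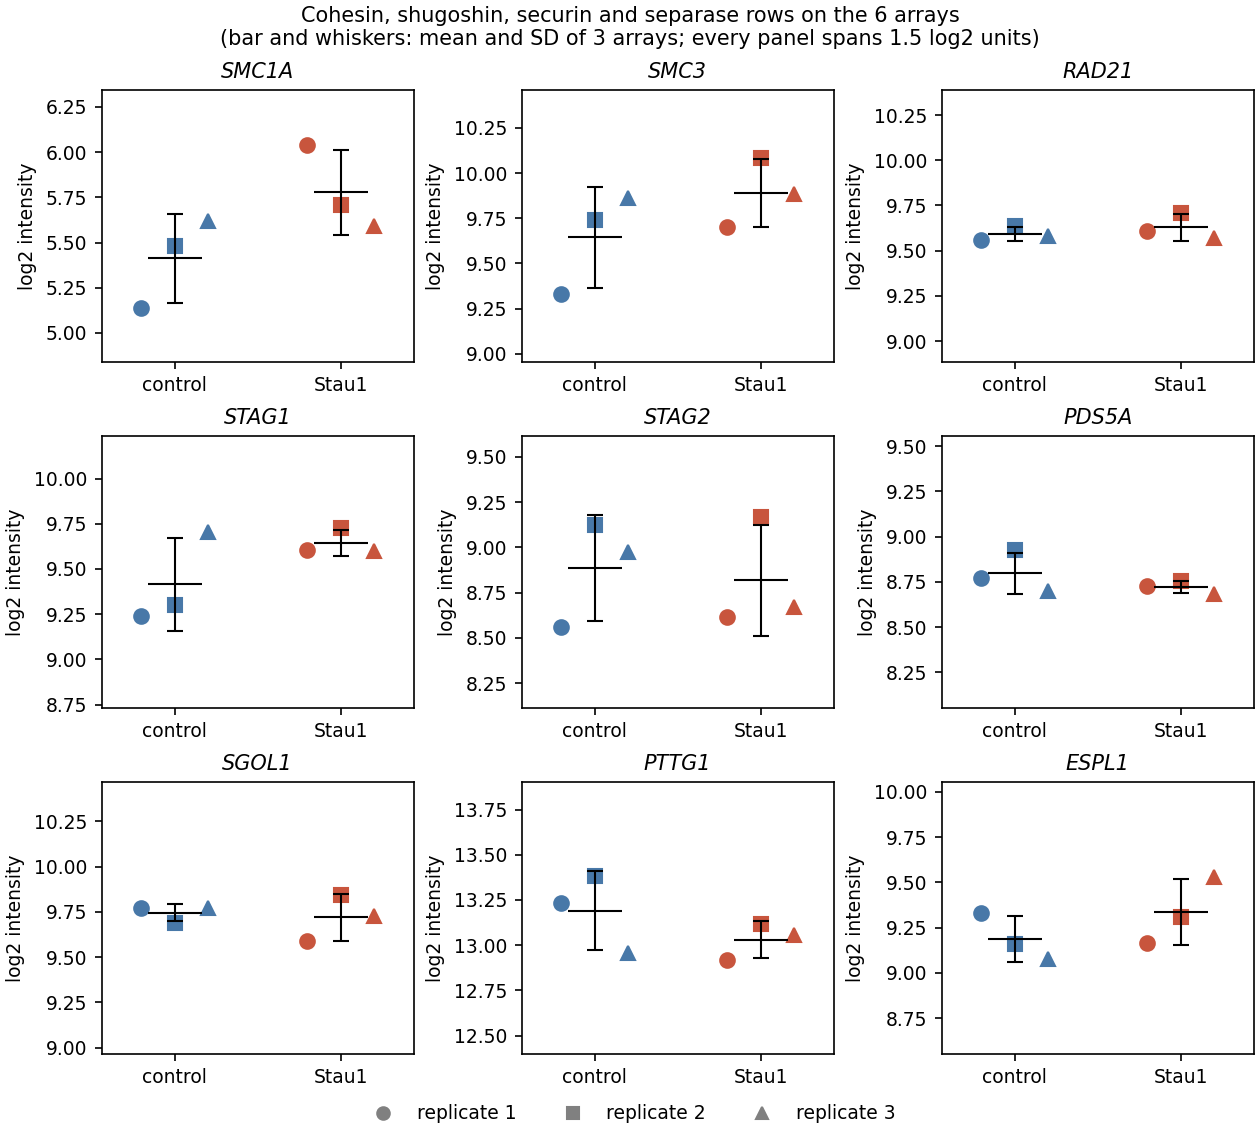
Log2 intensity (vertical axis, each panel spanning 1.5 log2 units) of the 9 measured genes in the control (blue) and Stau1 (red) arrays, with symbols for replicates 1 to 3 and a bar and whiskers for the mean and SD of 3 arrays. In every panel the control and Stau1 values overlap, and RAD21 has the narrowest spread, with a range of 0.15 over the 6 arrays.

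SMC1A, an ATPase subunit that forms the ring with SMC3, was the row nearest to background. Its log2 intensities were 5.14, 5.48 and 5.62 on the control arrays in replicate order and 6.04, 5.71 and 5.59 on the Stau1 arrays. The lowest value was a control array and the highest a Stau1 array, but control replicate 3 lay above Stau1 replicate 3. The change was 0.37 (SE 0.17, 95% interval 0.0013 to 0.73, unadjusted p = 0.0493 and adjusted p = 0.999 by limma), or 28.9% higher with Stau1, and the exact permutation p was 0.2. It was 0.24 without control replicate 1 or without Stau1 replicate 1. This row is a single probe with raw intensities of 93.1 to 130.8 and was detected on 5 of 6 arrays, with a detection p of 0.10 on control replicate 1. The values lie near the level of undetected rows, whose median was 4.85 on this scale. The change depended on the background estimate and was 0.018 when all rows were used for it.

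SMC3, the other ATPase, was 9.33, 9.74 and 9.86 in control and 9.70, 10.08 and 9.88 in Stau1 arrays. Control replicate 1 was again the lowest array and Stau1 replicate 2 the highest. The change was 0.25 (SE 0.15, 95% interval -0.073 to 0.57, exact permutation p = 0.4). Without control replicate 1 it was 0.090, the lowest value with any array left out.

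RAD21, the kleisin that closes the ring and that separase cuts, was 9.56, 9.64 and 9.58 in control and 9.61, 9.71 and 9.57 in Stau1 arrays. The 6 values lay within 0.15 of each other and the groups interleaved. The change was 0.037 (SE 0.11, 95% interval -0.19 to 0.27, exact permutation p = 0.6). The interval runs from 0.874-fold to 1.20-fold, and the sign of the change turned with array weights.

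STAG1 and STAG2 are alternative subunits, of which a cohesin ring holds either. STAG1 was 9.24, 9.30 and 9.71 in control and 9.60, 9.73 and 9.60 in Stau1 arrays. Control replicates 1 and 2 lay below every Stau1 array, whereas control replicate 3 lay among them. Its change was 0.23 (SE 0.13, 95% interval -0.062 to 0.52, exact permutation p = 0.3), and with single arrays left out it ran from 0.14 without control replicate 1 to 0.38 without control replicate 3 (limma adjusted p = 0.227 for the latter). STAG2, coded on chromosome X like SMC1A, was 8.56, 9.12 and 8.97 in control and 8.61, 9.17 and 8.67 in Stau1 arrays. In each group replicate 2 was the highest, and the change was -0.068 (SE 0.18, 95% interval -0.45 to 0.31, exact permutation p = 1). Its sign turned under median scaling and with some arrays left out. The difference STAG1 minus STAG2, which was looked at after the values had been seen, was higher in the Stau1 arrays by 0.30, but the groups overlapped and the exact permutation p was 0.3 (0.45 adjusted over 3 such differences). It was 0.12 without control replicate 2.

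PDS5A, which binds the ring and can promote either its release with WAPL or its maintenance, was 8.77, 8.92 and 8.70 in control and 8.73, 8.76 and 8.69 in Stau1 arrays. The Stau1 values lay close together, with an SD of 0.035, and inside the range of control except for replicate 3. The change was -0.077 (SE 0.12, 95% interval -0.34 to 0.19, exact permutation p = 0.4), and its sign turned under median scaling.

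WAPAL, the release factor now named WAPL, could not be described under its rule. RefSeq lists KIAA0261 among the older names of WAPL, and a row under that name was in the table. It was added after the missing row had been noticed and is not counted among the 9. It was 8.81, 9.11 and 9.17 in control and 8.97, 9.42 and 9.05 in Stau1 arrays, with overlapping groups and a change of 0.12 (SE 0.15, 95% interval -0.20 to 0.44, exact permutation p = 0.6).

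SGOL1, now SGO1, the shugoshin that shields centromeric cohesin from release, was 9.77, 9.69 and 9.77 in control and 9.59, 9.84 and 9.73 in Stau1 arrays. The Stau1 arrays held both the lowest and the highest value. The change was -0.026 (SE 0.11, 95% interval -0.27 to 0.21, exact permutation p = 0.8), and its sign turned under median scaling.

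PTTG1, securin, was 13.24, 13.38 and 12.95 in control and 12.92, 13.12 and 13.06 in Stau1 arrays. Control replicates 1 and 2 lay above every Stau1 array, and control replicate 3 lay below replicates 2 and 3 of Stau1. The change was -0.16 (SE 0.10, 95% interval -0.39 to 0.067, exact permutation p = 0.3). With single arrays left out it ran from -0.28 without control replicate 3 (limma adjusted p = 0.244) to -0.063 without control replicate 2.

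PTTG2 and PTTG3P are copies of PTTG1 with near-identical sequence, and probe sequences were not used here, so the values of all 3 rows are uncertain as to gene. PTTG3P was 12.65, 12.74 and 12.44 in control and 12.27, 12.46 and 12.38 in Stau1 arrays, with a change of -0.24 (SE 0.095, limma adjusted p = 0.999). The PTTG3P arrays stood in nearly the order of the securin row. PTTG2 was 8.15, 8.14 and 8.11 in control and 8.33, 8.27 and 8.17 in Stau1 arrays, a change of 0.12 (SE 0.13) in the other direction. Its groups did not overlap (exact permutation p = 0.1), as in 4.51% of all rows with the Stau1 arrays higher.

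ESPL1, separase, was 9.33, 9.16 and 9.08 in control and 9.17, 9.31 and 9.53 in Stau1 arrays. Stau1 replicate 3 was the highest of the 6, while Stau1 replicates 1 and 2 lay inside the control range. The change was 0.15 (SE 0.13, 95% interval -0.13 to 0.43, exact permutation p = 0.4), from a single probe, and it was 0.048 without Stau1 replicate 3. The difference ESPL1 minus PTTG1 on each array was -3.91, -4.22 and -3.88 in control and -3.75, -3.81 and -3.53 in Stau1 arrays. Its size reflects probes as well as RNA and only its shift between groups is read. The groups did not overlap and the shift was 0.31. The exact permutation p was 0.1, the smallest 3 against 3 can give, and 0.3 after adjustment over the 3 differences examined. Single rows separated with the Stau1 arrays higher in 4.51% of all rows. How often differences between other pairs of rows separate the groups was not computed. The shift was 0.20 without control replicate 2. The 3 differences were chosen after the values had been seen, and the adjustment over them does not account for that choice. The PTTG1 row in this difference is also uncertain as to gene.

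**Figure D2:**
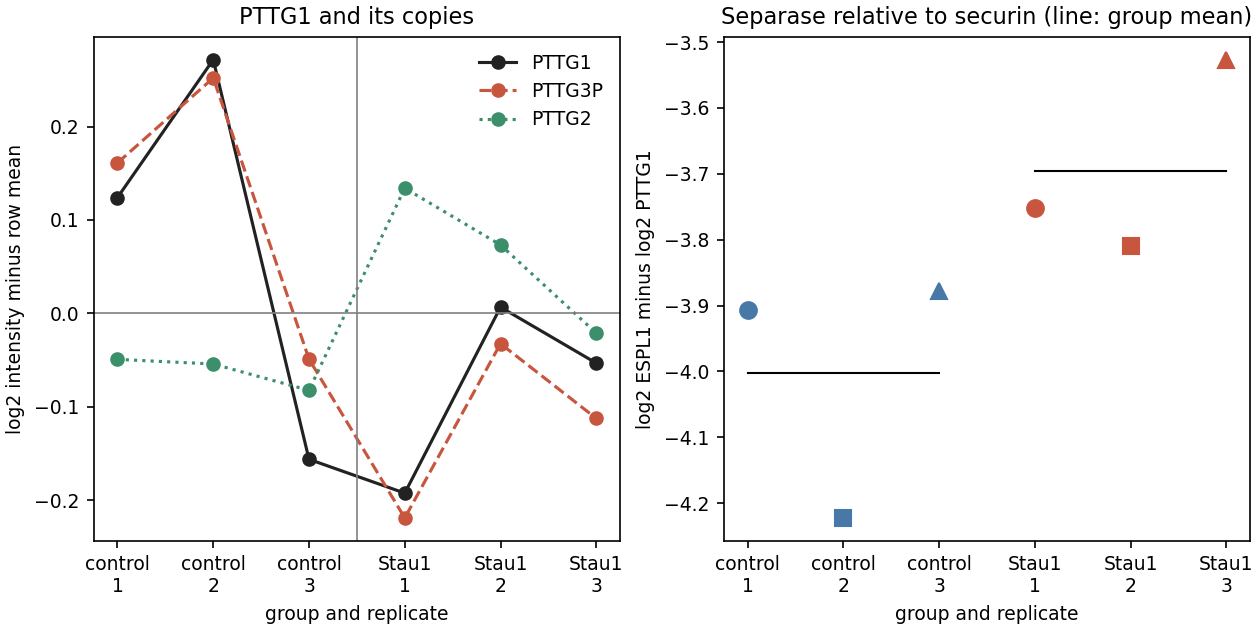
Left, log2 intensity minus the mean of its row over the 6 arrays for PTTG1 (black), PTTG3P (red) and PTTG2 (green). Right, log2 intensity of ESPL1 minus that of PTTG1 on each array, with lines at the group means of -4.00 (control) and -3.70 (Stau1). Every Stau1 array lies above every control array in this difference, which was chosen after the values had been seen.

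SGOL1, PTTG1 and ESPL1 share a promoter arrangement that the choice of genes did not use. Genes expressed in late G2 and mitosis often carry a CHR element, bound by the DREAM and MuvB complexes, near CCAAT boxes, which bind NF-Y. RefSeq promoter windows on GRCh38.p14, of 250 bases before and 50 after the start, were found for 9 of the 10 genes (all but RAD21) and searched on both strands for the hexamer TTTGAA or its variants TTCGAA as well as TTTAAA, and for the box CCAAT. Any of the hexamers was in 25.1% and CCAAT in 34.6% of 35116 windows of all genes, and both began within 30 bases of each other in 2.92%. Among the 9 genes, 4 held a hexamer (SMC3 too), 7 held CCAAT and 3 held both within 30 bases. A gene was counted if any of its windows matched, and SMC1A and PTTG1 had 2 windows and STAG2 3. The shares above are of single windows, so the units differ. These 3 stretches are shown because each holds both kinds of letters, which are in capitals and where ATTGG is CCAAT on the other strand. The hexamer itself differs between the 3 genes, and a match describes letters and is not evidence of a bound site. The stretch of SGOL1 is chr3:20186200-20186238 (minus strand), with the hexamer beginning 3 bases before the start and running across it. That of PTTG1 is chr5:160421800-160421835 (plus strand), with the hexamer beginning 29 bases before the first RefSeq start listed and 84 before the other. That of ESPL1 is chr12:53268247-53268277 (plus strand), with the hexamer beginning 31 bases before the start.
SGOL1: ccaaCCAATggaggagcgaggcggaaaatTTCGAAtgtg
PTTG1: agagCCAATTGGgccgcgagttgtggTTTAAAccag
ESPL1: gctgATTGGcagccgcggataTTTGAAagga
The 3 genes with this arrangement had changes of -0.026, -0.16 and 0.15 in the order listed. Their limma intervals were -0.27 to 0.21, -0.39 to 0.067 and -0.13 to 0.43. Each interval spans both signs, so the signs of the changes cannot show whether the 3 genes share a direction. Whether they changed together was not tested.

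The same arrays were often at the extremes of these rows. Control replicate 1 was the lowest of the 6 arrays in SMC1A, SMC3, RAD21, STAG1 and STAG2, which are 5 of 9 genes, and in 25.5% of all rows. It was the highest in 0 of 9 and in 26.9% of all rows. Stau1 replicate 2 was the highest array in SMC3, RAD21, STAG1, STAG2 and SGOL1, again 5 of 9, against 11.7% of all rows. SMC1A was instead highest on Stau1 replicate 1. In the 22 partner genes described below, control replicate 1 was lowest in 7 and highest in 5, beside the same 25.5% and 26.9% of all rows. It was also lowest in the KIAA0261 row. Whether it was lowest more often in the core subunits than in other rows was not tested. In RAD21 the lowest value, 9.561, was close to the next, 9.568 on Stau1 replicate 3. These counts describe single arrays and not the groups. The 9 rows had a median range of 0.46 over the 6 arrays, against 0.44 over all rows. The SE over beads was 2.32 to 7.13% of the intensity. The average bead number given for a row and array was 30 to 54.

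**Figure D3:**
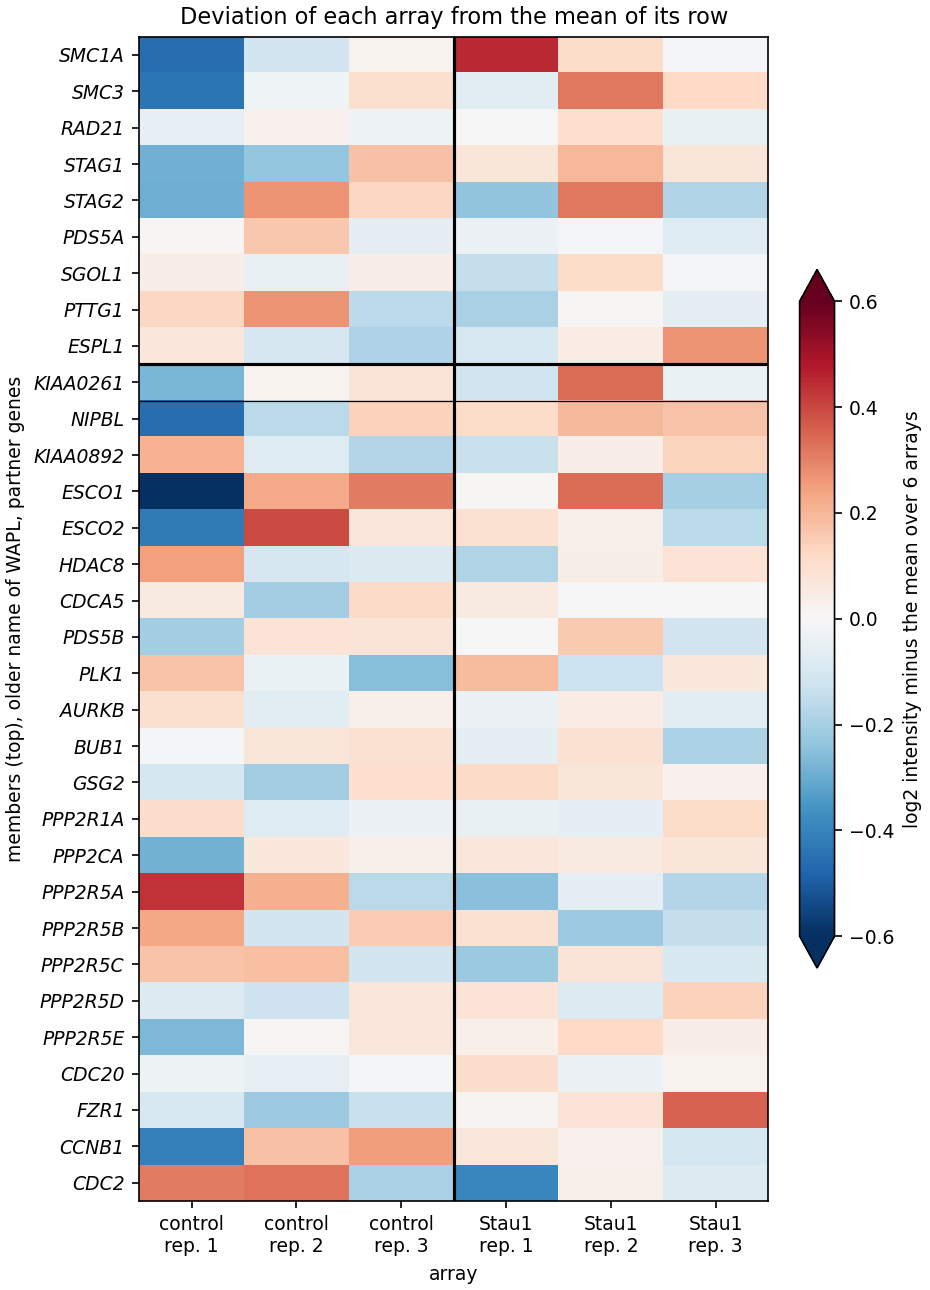
Log2 intensity minus the mean of each row over the 6 arrays (colour, red above and blue below the mean), with the 9 genes on top, then the row under an older name of WAPL, then the partner genes, and the control arrays left of the Stau1 arrays. Control replicate 1 is blue in the 5 core cohesin rows, and Stau1 replicate 2 is red in SMC3, STAG1 and STAG2.

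Among the alternatives run, the count of called rows was above 0 only without control replicate 3, where 39 of all rows (0.294%) had an adjusted p under 0.05 and 12.8% an unadjusted p under 0.05. Of the 9 genes 0 passed the adjusted threshold, the lowest adjusted p being 0.227, and 4 passed the unadjusted threshold. SMC1A (0.45), SMC3 (0.35) and STAG1 (0.38) were higher, with 7.20% of all rows found in that direction, and PTTG1 (-0.28) was lower, with 5.58%. The cause was not tested.

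**Figure D4:**
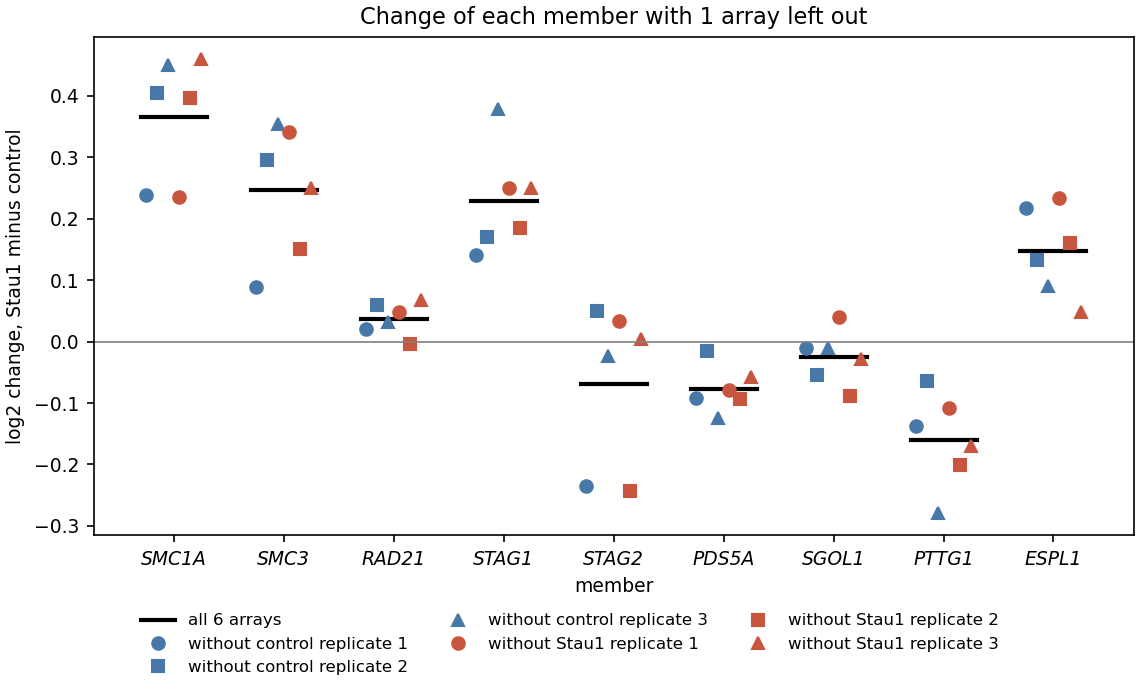
Change of each of the 9 genes in log2 units with all 6 arrays (black bar) and with each array left out in turn (blue, a control array; red, a Stau1 array). SMC1A, SMC3, STAG1 and ESPL1 stay above 0 and PDS5A and PTTG1 below it with any array left out, while RAD21, STAG2 and SGOL1 cross it.

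The partner genes load, acetylate, phosphorylate or protect cohesin or act on securin. Of the 23, 22 were kept by the detection filter and 0 passed the adjusted test, as 0 of all rows did. Means were higher with Stau1 in 13 of 22, with a median change of 0.028. At an unadjusted p under 0.05 there was 1 (PPP2R5A, lower, against 1.32% of all rows in that direction), and the groups did not overlap in 1 (FZR1, higher, against 4.51%).

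Among loaders, NIPBL, which places cohesin on DNA, had a change of 0.32 (SE 0.17, exact permutation p = 0.2), which was 0.049 when the background was estimated from all rows. KIAA0892, an older name of its partner MAU2, was at 0.028. The acetyltransferases ESCO1 and ESCO2, which lock the ring in S phase, were at 0.097 and -0.026. ESCO2 lay near background, with raw intensities of 93.8 to 132.7 and detection on 5 of 6 arrays. The deacetylase HDAC8 was at -0.039, with a sign that turned under median scaling. Sororin (CDCA5), which counters WAPL, was at 0.030, and PDS5B, the paralogue of PDS5A, at 0.029.

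The mitotic kinases, which drive removal of cohesin from the arms or recruit its protector, had no gene past the test. PLK1 was at 0.081, AURKB at -0.036, BUB1 at -0.10 and haspin (GSG2) at 0.14. CDC2, now CDK1, which with CCNB1 inhibits separase, was 10.64, 10.66 and 10.14 in control and 9.94, 10.36 and 10.25 in Stau1 arrays. Control replicates 1 and 2 were its highest arrays, and the change was -0.30 (SE 0.15, exact permutation p = 0.3). CCNB1 was at -0.012, and the signs of AURKB and CCNB1 turned under median scaling.

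The PP2A subunits, which work with shugoshin, did not share a direction. The scaffold PPP2R1A was at 0.0060 and the catalytic PPP2CA at 0.13. Of the B56 regulatory subunits, PPP2R5D and PPP2R5E were at 0.093 and 0.13, and PPP2R5B and PPP2R5C at -0.18 and -0.16. PPP2R5A was 9.75, 9.53 and 9.16 in control and 9.07, 9.26 and 9.14 in Stau1 arrays. Control replicates 1 and 2 lay above all Stau1 arrays and control replicate 3 among them, and the change was -0.32 (SE 0.15, exact permutation p = 0.2).

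The activators of the anaphase-promoting complex were CDC20, at 0.058, and FZR1, which codes for Cdh1. FZR1 was 5.61, 5.49 and 5.57 in control and 5.72, 5.78 and 6.06 in Stau1 arrays. Every Stau1 array lay above every control array, and the change was 0.30 (SE 0.14, limma adjusted p = 0.999, exact permutation p = 0.1), but 0.015 when the background was estimated from all rows.

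**Figure D5:**
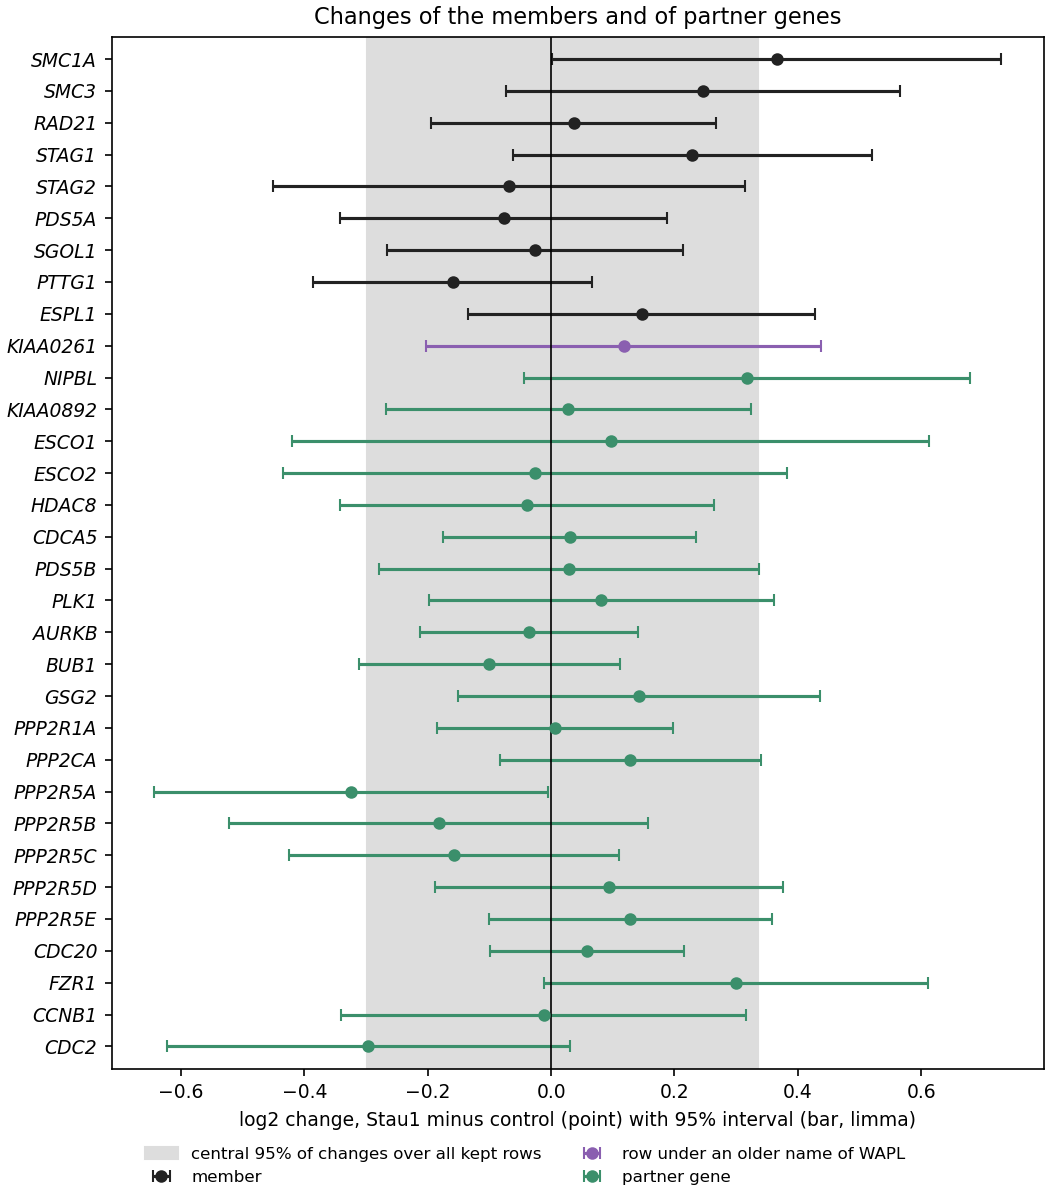
Change in log2 units, Stau1 minus control, with its 95% interval from limma, for the 9 genes (black), the row under an older name of WAPL (purple) and the 22 partner genes (green). The grey band spans the central 95% of changes over all rows, -0.30 to 0.34, and every interval except those of SMC1A and PPP2R5A includes 0.

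The meiotic relatives of these subunits were mostly below detection. SMC1B was detected on 0 arrays and REC8 on 1, RAD21L1 had no row, and STAG3 was detected on 6 arrays at 6.53 to 6.67. STAG3 had a change of -0.027 (SE 0.14).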

How the data were processed

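Total RNA from 3 control and 3 Stau1 samples was hybridised to Illumina HumanWG-6 v3 arrays, and groups follow the transfection named in the labels. Per the file headers, the authors deposited a BeadStudio gene profile with no normalization, holding an intensity, a detection p-value, a standard error over beads and a bead number per row and array. The unit of the deposited values is intensity, and the number of arrays limits the precision. Of the value columns, 0 could not be mapped to a sample. The genome build was not given in the sources used here. Nocodazole was longer in the published methods than in the labels, whose time is printed.

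Values were computed with limma 3.58.1 in R 4.3.3, and figures with matplotlib 3.10.9. Background was corrected by normexp with an offset of 16, inferred from the detection p of the 30932 rows of a single probe, those with whole bead numbers and p in whole steps of 1 in 759 (tolerance 0.002). Intensities were then quantile normalised and log2 transformed, in the order of limma's neqc. The other order, on log2 values, had also been run and is an alternative. Rows with detection p under 0.05 on at least 3 arrays were kept, 13285 or 35.1% of 37879. Groups were compared by lmFit and eBayes with a variance trend, two-sided, with Benjamini-Hochberg adjustment over all kept rows and a threshold of 0.05, and by exact permutation of single values. The fit was tested on simulated data.

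The members and lists were chosen with earlier results of these data known. All members were named with every array, partner genes by their change and the 3 of lowest p with every array. KIAA0261, PTTG2, PTTG3P and the differences between members were described after their values were seen. Alternatives were other background corrections, normalizations, filters, fits, the t-test of the methods, the replicate block and each array left out. Replicate numbers were not taken as pairs, since deviations of same-numbered arrays correlated at 0.015, 0.26 and -0.14. RefSeq gave older names and, on GRCh38.p14, the promoter windows. One leukocyte marker is not reported here.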

Additional observations from a re-analysis of the deposited data

How the results depend on the processing

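Over the alternatives run, 0 of the 9 genes and 0 of the 22 partner genes passed the adjusted threshold. The count over all rows, 0 with all arrays, ran from 0 to 39 when each array was left out, and it was 39 without control replicate 3. The replicate block called 0 rows and 605 at an unadjusted p, against 495 without it, with a lowest adjusted p of 0.985 among the 9 genes. The methods' t-test called 0 rows after adjustment, 462 of 13284 (3.48%) before it and 0 past 2-fold, and none of the 9. The paper names that test for immunoprecipitated RNA, after another transformation and normalization. For the comparison made here it reports a few probes past 2-fold, counted by probe, whereas rows here average the probes of a gene. Quantile normalization on log2 values, added after the data were seen, called 0 rows and 495 unadjusted and turned no direction. Requiring detection p under 0.01 on all arrays left 8726 rows and 8 of the 9 genes, since it removed SMC1A. Slide was not fitted as a block, since no column gives it.

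Median scaling moved the median change of all rows to 0.068, and the directions of STAG2 (0.011), PDS5A (0.013), SGOL1 (0.069), AURKB (0.052), CCNB1 (0.075) and HDAC8 (0.055) turned under it. Array weights turned RAD21 (-0.0036), ESCO1 (-0.14), PDS5B (-0.070) and HDAC8 (0.062). The change of SMC3 relative to SMC1A, -0.12 with an exact permutation p of 1, was 0.044 without background correction, 0.23 with background from all rows and 0.022 with an offset of 50. Leaving out 1 array gave ranges of -0.0037 to 0.067 for RAD21, -0.24 to 0.050 for STAG2, -0.089 to 0.040 for SGOL1, -0.021 to 0.21 for KIAA0261 and -0.25 to 0.10 for SMC3 relative to SMC1A. Among partner genes they were -0.052 to 0.14 for KIAA0892, -0.22 to 0.27 for ESCO1, -0.26 to 0.17 for ESCO2, -0.098 to 0.074 for HDAC8, -0.068 to 0.094 for CDCA5, -0.067 to 0.094 for PDS5B, -0.027 to 0.19 for PLK1, -0.078 to 0.0013 for AURKB, -0.046 to 0.060 for PPP2R1A and -0.22 to 0.11 for CCNB1. The cause was not tested. SMC1A, FZR1 and ESCO2 had signal near background. With background estimated from all rows, the changes of SMC1A and FZR1 were 0.018 and 0.015, and that of NIPBL was 0.049. The same setting also shrank the changes of GSG2 (0.14 to 0.042) and PPP2R5B (-0.18 to -0.031), both detected on 6 arrays. It enlarged that of CDC2 (-0.30 to -0.39).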

Other observations

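SGOL2, the second shugoshin, was left out by the detection filter although its raw intensity was 194 to 345, because its detection p was 0.129 to 0.255 on the 6 arrays. On the log2 scale it was 7.35, 7.83 and 7.75 in control and 7.73, 7.90 and 7.51 in Stau1 arrays, with overlapping groups. The row averages several probes, and its detection p does not follow its intensity as in a row of 1 probe. The NIPBL row had intensities of 167 to 314 and was detected on 5 of 6 arrays.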
